A study of Mus musculus with 7 samples.

Results

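Polycomb repressive complex 2 (PRC2) was described here through 10 genes chosen by name as its catalytic, core and accessory subunits: *Ezh1*, *Ezh2*, *Eed*, *Suz12*, *Jarid2*, *Mtf2*, *Phf1*, *Phf19*, *Rbbp4* and *Rbbp7*. All 10 were among the 21928 genes listed in the deposited tables. Of these, 9 passed the low-level filter and were among the 13630 genes tested, and *Phf19* did not.

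PRC2 places methyl groups on lysine 27 of histone H3, a mark of silenced genes. EZH1 or EZH2 supplies the enzyme, EED and SUZ12 hold the complex together and are needed for its activity, and RBBP4 or RBBP7 binds histones. One form of the complex contains a Polycomb-like protein (MTF2, PHF1 or PHF19) and another contains JARID2, and in male germ cells PRC2 is known to repress somatic genes and to be needed for normal spermatogenesis.

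The 7 libraries came from whole testes of male C57BL/6N mice, 4 of them wild type and 3 *Meioc*-null. The null mice carried the *Meioc* tm1.1Dpc allele throughout the body. MEIOC is a germ-cell protein needed to leave the mitotic cycle and carry meiosis forward. All mice, of both genotypes, received WIN18446 daily from postnatal day 2 to 8 at 0.1 mg per g of body weight, which holds spermatogonia back from differentiating. They then received retinoic acid on postnatal day 9 at 0.0125 mg per g, which releases the cells together. Testes were taken 6.75 days later, when preleptotene spermatocytes, the germ cells about to start meiosis, are enriched, and each library held RNA from 1.5 testes of a single pup. The tissue still contained Sertoli, Leydig, peritubular myoid, endothelial and immune cells, so a lower transcript level in whole testis cannot be told apart into fewer cells of a type and less RNA per cell.

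Libraries held 12537852 to 20552702 estimated counts. *Meioc* itself was at 466, 658, 662 and 718 CPM (counts scaled to library size) in wild-type replicates 1 to 4 and at 399, 299 and 412 in *Meioc*-null replicates 1 to 3. The groups did not overlap, and the log2 fold change, wild type over *Meioc*-null, was 0.76 ± 0.16 (SE; edgeR quasi-likelihood test, adjusted p = 0.021). The call was lost without any 1 of wild-type replicates 2, 3 and 4 or null replicates 2 and 3 (edgeR adjusted p of 0.052 to 0.064), with the same direction each time. Wild-type replicate 1 stood nearest to the null libraries, with a correlation of log2 CPM of 0.987 with null replicate 1. Its correlations with wild-type replicates 2, 3 and 4 were 0.988, 0.986 and 0.983, so it was no closer to most of its own group. By squared difference over counting noise it was nearest to null replicate 1, at 11.5. That measure was 14.3, 19.9 and 23.6 to wild-type replicates 2, 3 and 4, and 29.9 and 18.8 to null replicates 2 and 3. Markers of meiotic prophase rose in wild type in 8 of 8 genes tested, with summed levels of 2436 to 3584 CPM against 1097 to 1365 CPM in null, and the lowest wild-type library was replicate 1. Germ cell markers *Ddx4* and *Dazl* summed to 1232 to 1395 CPM in wild type and 836 to 971 CPM in null, and *Dazl* was called higher (edgeR adjusted p = 0.011) while *Ddx4* was not (0.081). S phase markers were called higher in 2 of 7 genes (*Mcm5* and *Pcna*). Markers of G2/M were called higher in 3 of 8 (*Top2a*, *Bub1* and *Mki67*) and lower in 1 (*Ccnb1*). *Kit* was the 1 of 5 differentiating spermatogonial markers called higher, and *Zbtb16* the 1 of 4 undifferentiated spermatogonial markers called lower. Among somatic markers, *Gata4* of 8 Sertoli cell genes and *Des* of 4 peritubular myoid genes were called lower, and the edgeR test called 0 of 6 Leydig, 0 of 4 endothelial and 0 of 4 macrophage genes, with 2, 1 and 1 of them at an unadjusted p under 0.05. DESeq2 called 2 Leydig genes lower and no endothelial or macrophage gene. With 1 library left out the counts called ranged from 6 to 8 for meiotic prophase, 0 to 4 for S phase and 0 to 3 for G2/M (higher), and null replicate 3 was among the libraries whose omission gave the lowest counts. No marker of any of these lists was at 0 in any library.

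The subunits differed widely in level. Levels were compared between genes in TPM, a relative transcript abundance that accounts for transcript length. *Rbbp7* was highest, at a mean of 344 TPM over the 7 libraries, and was above *Rbbp4*, at 81.7 TPM, in 7 of 7. *Suz12*, at 71.7 TPM, and *Mtf2*, at 69.7 TPM, followed and overlapped with *Rbbp4* and with each other in range. *Eed* was at 56.2 TPM, and its range overlapped that of *Mtf2* but not that of *Ezh2*, at 35.6 TPM. *Ezh2*, *Ezh1* (30.8 TPM) and *Jarid2* (29.8 TPM) did not separate by range. *Phf1* was far lower at 5.69 TPM, and *Phf19* was at 0.498 TPM, below 1 TPM in every library. By these means the histone-binding and core subunits were above the enzymes, and among the Polycomb-like genes *Mtf2* supplied most of the transcript.

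**Figure D1:**
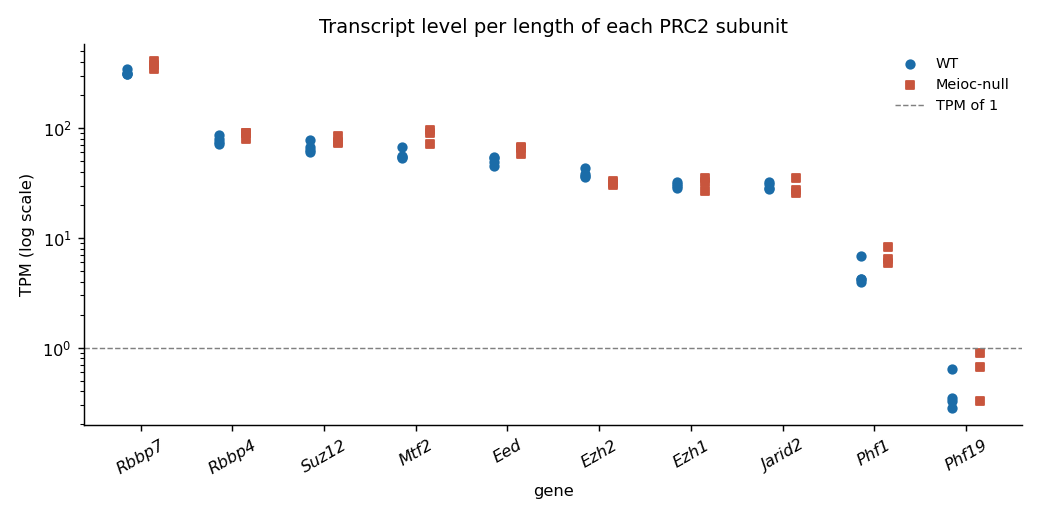
Transcript level in TPM (log axis) of each PRC2 gene, ordered by its mean over 7 libraries, with 1 point per library (circles, 4 wild type; squares, 3 Meioc-null) and a dashed line at 1 TPM. Rbbp7 lies above all other genes in every library, and all 7 points of Phf19 lie below the line.

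Promoters of 4 members carried a 7-base word of the kind bound by E2F factors, which drive cell-cycle genes. Promoter windows of 300 bases, from 250 before the start, were read from RefSeq (GRCm38.p6) for all 10 genes, with 12 windows in all, and searched on both strands for TTCCCGC and TTGGCGC, neither of which contains the other. TTGGCGC was found in *Ezh2* and *Rbbp4* and in 2.45% of the 32851 windows of all genes, and TTCCCGC in *Phf19* and *Suz12* and in 4.60%. They are shown because *Ezh2* was the one member whose level passed the test below. All starts are those of RefSeq. The *Ezh2* gene range given below, from GENCODE, begins further upstream, at 47595341. Each stretch is written 5′ to 3′ on the strand of its gene, with the word in capitals.
Ezh2, chr6:47594981-47595071, minus strand, word beginning 4 bases after the start: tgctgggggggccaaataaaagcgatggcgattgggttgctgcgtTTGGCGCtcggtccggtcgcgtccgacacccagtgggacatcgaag
Rbbp4, chr4:129335334-129335430, minus strand: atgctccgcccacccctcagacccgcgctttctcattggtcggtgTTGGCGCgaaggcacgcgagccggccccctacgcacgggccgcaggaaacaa
Suz12, chr11:79992856-79992939, plus strand: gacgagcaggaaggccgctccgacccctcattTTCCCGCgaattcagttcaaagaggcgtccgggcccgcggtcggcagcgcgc
Phf19, chr2:34914133-34914226, minus strand, where the word lies on the opposite strand: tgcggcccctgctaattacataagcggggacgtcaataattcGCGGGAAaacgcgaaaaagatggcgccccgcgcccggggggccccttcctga
A match to these letters is a description of the sequence and does not show that a factor binds there. *Rbbp4*, which shares TTGGCGC with *Ezh2*, and *Suz12*, which carries TTCCCGC, were not called, and *Phf19* did not pass the filter.

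Transcript levels of the members were then compared between genotypes, as CPM after trimmed-mean (TMM) scaling. Of 9 members tested, 1 was called higher in wild type at an adjusted p under 0.05, 0 were called lower and 8 were not called, beside 11.1% of all tested genes called in either direction, 7.77% called higher and 3.33% called lower. Unadjusted p was under 0.05 for 3 of the 9 (*Ezh2*, *Mtf2* and *Jarid2*), and with DESeq2 1 member, *Mtf2*, was called lower, where 6.42% of genes were. The median log2 fold change of the 9 members was 0.07 against -0.01 for all genes. In 3 members (*Ezh2*, *Ezh1* and *Suz12*) the groups did not overlap in CPM, beside 26.2% of all tested genes. In TPM the groups of *Ezh1* and *Suz12* overlapped. Those of *Ezh2* did not, nor did those of *Eed*, *Mtf2* and *Rbbp7*, which were higher in null. The share of all genes without overlap in TPM was not computed.

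*Ezh2*, the catalytic subunit typical of dividing cells, was the called gene (ENSMUSG00000029687.16; chr6:47530139-47595341, GRCm38). It was at 45.4, 53.9, 54.6 and 59.1 CPM in wild-type replicates 1 to 4 and at 36.04, 33.01 and 39.59 CPM in null replicates 1 to 3. Every wild-type library lay above every null library, and wild-type replicate 1 lay nearest to them. The mean was 53.2 ± 5.73 CPM (SD, n = 4) in wild type and 36.2 ± 3.29 CPM (SD, n = 3) in null. The log2 fold change was 0.56 ± 0.11 (SE; 95% interval 0.31 to 0.80), or 1.47-fold, with an adjusted p of 0.018 in edgeR's quasi-likelihood test. These values rest on 457 to 1175 estimated counts per library. The call was lost without wild-type replicate 2 (adjusted p = 0.055) or 3 (0.057) and without null replicate 2 (0.057) or 3 (0.056), while the log2 fold change stayed between 0.49 and 0.63. The 8 meiotic prophase markers, *Dazl*, *Mcm5* and *Pcna* were called in the same direction, whereas *Ddx4* and the other 5 S phase markers were not called. Their part in the *Ezh2* difference was not tested.

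*Ezh1*, the paralogous enzyme that predominates in non-dividing cells, was at 98.0, 101, 97.5 and 105 CPM in wild type and at 77.0, 89.4 and 97.1 CPM in null. The groups did not overlap, but wild-type replicate 3 and null replicate 3 lay within 1 CPM of each other. The log2 fold change was 0.19 ± 0.09 (SE; 95% interval -0.01 to 0.39; adjusted p = 0.19 in the same edgeR test). The ratio of *Ezh2* to *Ezh1* in TPM was 1.12, 1.24, 1.33 and 1.40 in wild type and 1.14, 0.893 and 1.02 in null. Wild-type replicate 1 fell within the null range, and the ratio was not distinguished (two-sided exact permutation test, p = 0.114, adjusted p = 0.286 over 5 ratios). With 4 against 3 libraries the smallest p this test can give is 0.0571.

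*Suz12* and *Eed*, the scaffold and the reader of the methyl mark, were close between genotypes in whole testis with TMM scaling. The study listed *Suz12* among transcripts bound by MEIOC, YTHDC2 and RBM46. From single-cell data it also found *Suz12* lowered by MEIOC in late spermatogonia or preleptotene cells in G1. Whole-testis values do not separate those stages. *Suz12* was at 163, 153, 150 and 158 CPM in wild type and at 148, 149 and 149 CPM in null. The 3 null libraries lay just below the lowest wild-type library, and the log2 fold change was 0.07 ± 0.07 (SE; 95% interval -0.08 to 0.22; adjusted p = 0.52). *Eed* was at 56.8, 63.4, 53.6 and 56.0 CPM in wild type and at 56.9, 55.1 and 66.2 CPM in null. The groups overlapped, with a log2 fold change of -0.05 ± 0.09 (SE; 95% interval -0.26 to 0.16; edgeR adjusted p = 0.75). In TPM the *Eed* groups did not overlap, at 45.7 to 55.0 in wild type and 58.0 to 66.8 in null. On log2(TPM + 1) *Eed* was at -0.31 (limma, adjusted p = 0.051), or -0.09 relative to the median of all genes. The ratio of *Suz12* to *Eed* in TPM was 1.32 ± 0.13 (SD, n = 4) in wild type and 1.23 ± 0.11 (SD, n = 3) in null (exact permutation test, p = 0.343).

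*Rbbp4* and *Rbbp7* encode histone chaperones that also serve in the NuRD, SIN3 and CAF-1 complexes, so their transcripts are not specific to PRC2. *Rbbp4* ranged from 213 to 234 CPM in wild type and from 197 to 223 CPM in null, with a log2 fold change of 0.11 ± 0.08 (SE; 95% interval -0.06 to 0.27; edgeR adjusted p = 0.37). *Rbbp7* was tight in wild type, 336 to 343 CPM, and wider in null, 304 to 378 CPM. Its log2 fold change was 0.03 ± 0.08 (SE; 95% interval -0.16 to 0.22; adjusted p = 0.86). Both sequences are shared in part with processed pseudogenes: 14.5% of the 31-base words of *Rbbp7* transcripts occur in Gm6382 and 3.75% of those of *Rbbp4* in Gm4800, so reads could be divided between these and the genes. The other 8 members shared under 1% of their words. The ratio of *Rbbp4* to *Rbbp7* in TPM was 0.244 ± 0.0113 (SD, n = 4) in wild type and 0.231 ± 0.00943 (SD, n = 3) in null (exact permutation test, p = 0.229).

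The accessory subunits leaned in opposite directions, and none was called in the edgeR test. *Jarid2*, which recruits the complex and modulates its activity, was at 119, 133, 141 and 145 CPM in wild type and at 107, 127 and 104 CPM in null. Null replicate 2 lay above wild-type replicate 1, and the log2 fold change was 0.26 ± 0.10 (SE; 95% interval 0.04 to 0.48; adjusted p = 0.12). *Mtf2*, a Polycomb-like protein that tethers PRC2 to CpG-rich DNA, was at 122, 112, 104 and 113 CPM in wild type and at 122, 143 and 159 CPM in null. Null replicate 1 lay just below wild-type replicate 1, and the other null libraries lay above every wild-type library. The log2 fold change was -0.33 ± 0.10 (SE; 95% interval -0.55 to -0.10; adjusted p = 0.066).

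*Mtf2* crossed the threshold under 6 of 16 other settings, single-library omissions included. It was called lower in wild type by DESeq2 (log2 fold change -0.34, adjusted p = 0.025), with no scaling beyond library size (-0.40, 0.039; 6.6% of genes called lower) and by limma on log2(TPM + 1) (-0.56, 0.024; 15.3% of genes called lower). It was also called in the edgeR fit without wild-type replicate 1 (adjusted p = 0.047) or without null replicate 1 (0.025). The range over the other single-library omissions was not significant, from 0.126 without wild-type replicate 4 to 0.204 without null replicate 3. *Mtf2* was also not called by edgeR with RLE scaling (adjusted p = 0.063), no filter (0.077) or a filter on counts (0.067). The same held with the length trend removed (0.081) and with the replicate block (0.25).

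*Phf1*, another Polycomb-like gene, was at 16.7, 11.8, 10.7 and 11.5 CPM in wild type and at 13.6, 17.2 and 15.9 CPM in null. Wild-type replicate 1 was high and overlapped the null range, and the log2 fold change was -0.30 ± 0.17 (SE; 95% interval -0.67 to 0.08; edgeR adjusted p = 0.26). Without wild-type replicate 1 it was -0.45 (adjusted p = 0.0496). *Phf19* held 12 to 50 estimated counts per library and was at 1.10, 1.18, 2.29 and 1.01 CPM in wild type and at 2.66, 0.87 and 2.06 CPM in null. The groups overlapped, and no difference was detected at this depth: with no filter the log2 fold change was -0.45 (edgeR adjusted p = 0.55).

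**Figure D2:**
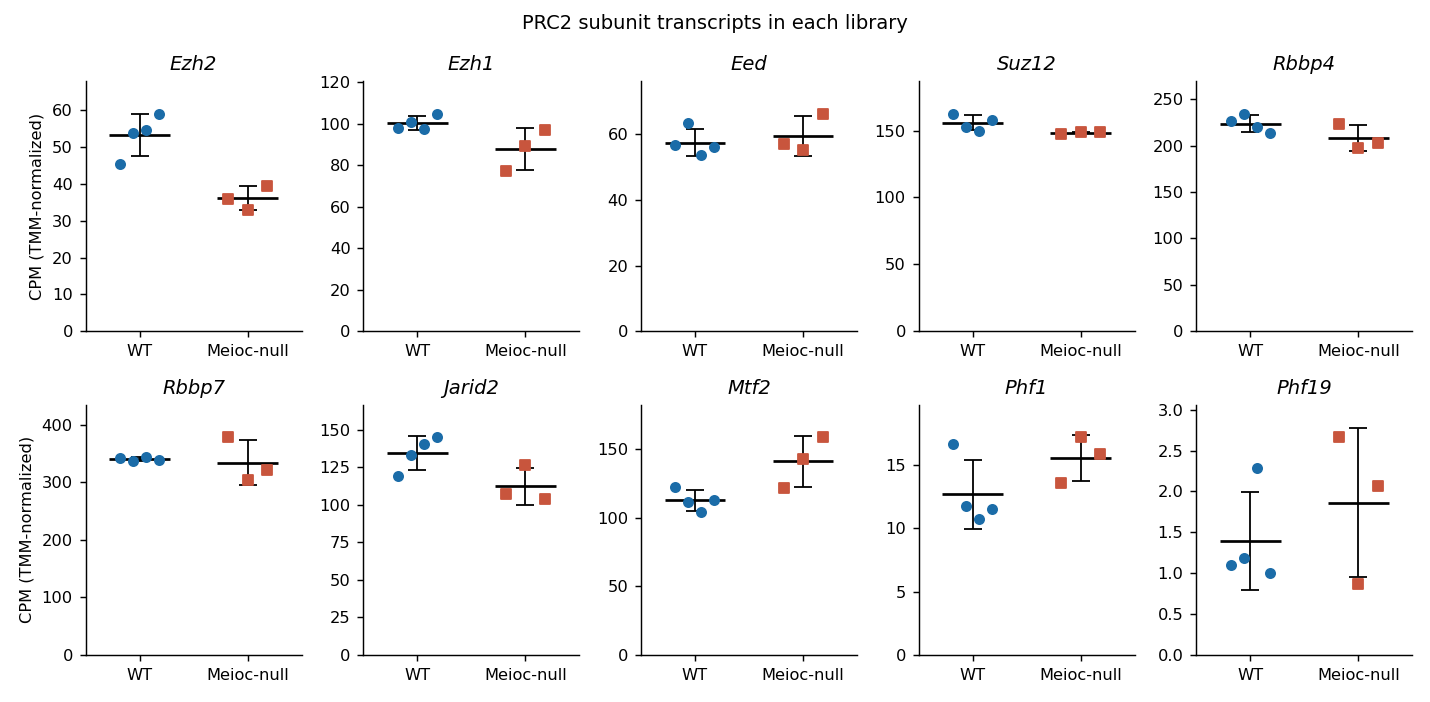
TMM-normalized CPM of each PRC2 gene, with 1 point per library (circles, 4 wild type; squares, 3 Meioc-null), the mean as a horizontal line and the SD as bars; each panel starts at 0. Ezh2 shows separate groups, at 45.4 to 59.1 CPM in wild type and 33.0 to 39.6 CPM in null, while Mtf2 overlaps through replicate 1 of both genotypes.

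Ratios within a library do not move with library scaling. *Jarid2* was set against the summed Polycomb-like genes *Mtf2*, *Phf1* and *Phf19*, as transcripts of subunits of the 2 forms of PRC2. In whole testis these transcripts may come from different cells, so their ratio does not measure a balance of the complexes. The ratio was 0.379, 0.478, 0.542 and 0.539 in wild type. It was 0.348, 0.338 and 0.267 in null, so that every wild-type library lay above every null library. The ratio was 1.52-fold higher in wild type (log2 difference 0.60) with a two-sided exact permutation p of 0.0571, the smallest that 4 against 3 libraries can give, and an adjusted p of 0.286 over 5 ratios. The ratio of *Phf19* to *Mtf2* overlapped (p = 1, exact permutation test) and rests on the few counts of *Phf19*. A further ratio, *Ezh2* to *Mtf2*, was chosen after the values were seen and is given without a test: 0.531, 0.674, 0.721 and 0.779 in wild type and 0.424, 0.329 and 0.367 in null, a log2 difference of 0.85. The groups did not overlap.

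**Figure D3:**
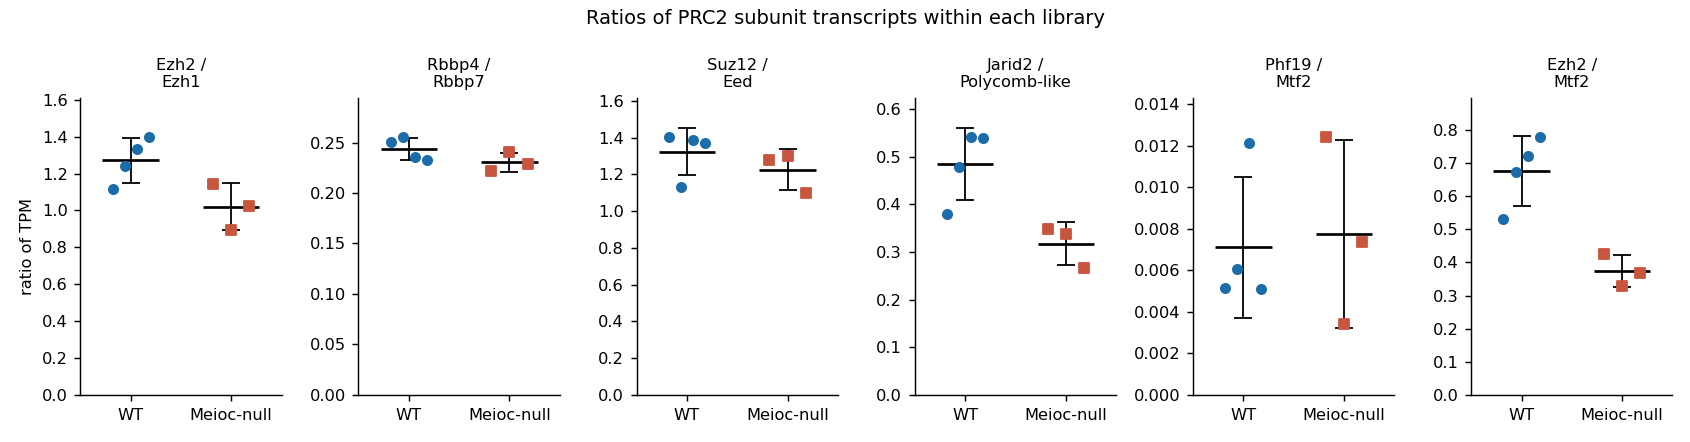
Ratio of TPM within each library for 6 pairs of PRC2 genes (circles, 4 wild type; squares, 3 Meioc-null), with the mean as a line and the SD as bars, each axis starting at 0; Polycomb-like is the sum of Mtf2, Phf1 and Phf19. The groups do not overlap in Jarid2 to Polycomb-like and in Ezh2 to Mtf2, the second of which was chosen after its values were seen.

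The sign of the small differences depended on the scale. On log2(TPM + 1) the median of all genes was shifted to -0.23, and on counts with no scaling beyond library size to -0.08, against -0.01 with TMM. *Ezh1*, *Suz12*, *Rbbp4* and *Rbbp7* were above 0 with TMM and below 0 on log2(TPM + 1). *Ezh2* was at 0.27 there and not called (adjusted p = 0.073, limma). Relative to the median of all genes, *Ezh2* was at 0.56 with TMM and 0.50 on log2(TPM + 1), *Jarid2* at 0.27 and 0.26, and *Mtf2* at -0.32 and -0.33. The summed level of the 10 genes was 1177 to 1200 CPM in wild type and 1115 to 1164 CPM in null, but 655 to 735 TPM and 755 to 824 TPM, so its direction also turned with the scale.

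**Figure D4:**
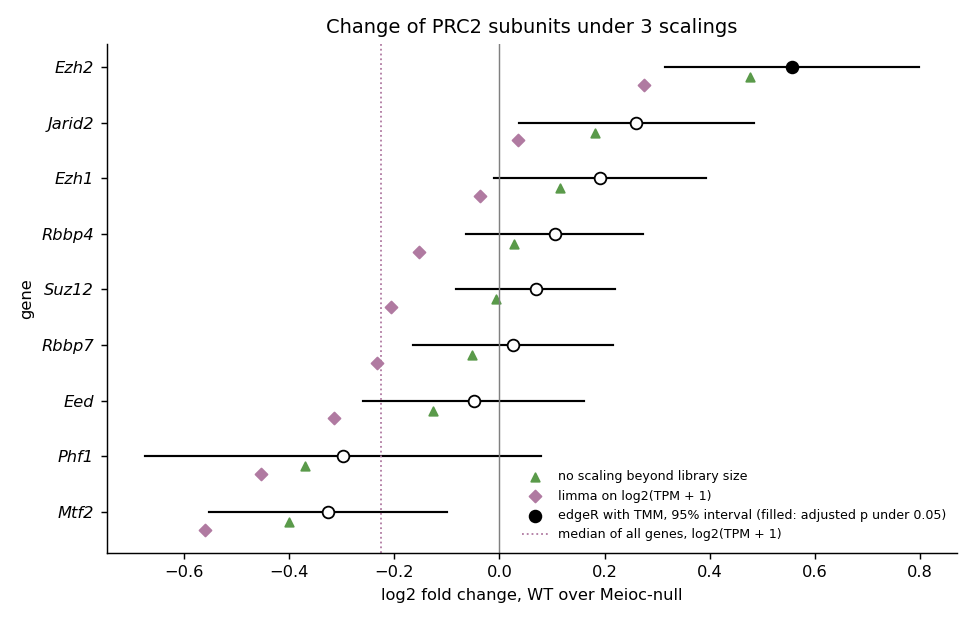
Log2 fold change, wild type over Meioc-null, of the 9 PRC2 genes tested, with edgeR and TMM (circles with 95% intervals, filled when called), with no scaling beyond library size (triangles) and by limma on log2(TPM + 1) (diamonds); the dotted line is the median of all genes on log2(TPM + 1), -0.23. The order of the extremes is kept, with Ezh2 highest and Mtf2 lowest, while the genes near 0 change sign.

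Annotated isoforms were also examined. The members had 21 listed transcripts, of which 17 were tested and 0 were called by edgeR, beside 0.0639% of 21920 transcripts, with 1 of the 17 at an unadjusted p under 0.05. That transcript was Mtf2-201, which made up 91.3 to 100% of *Mtf2* and differed by -0.36 on the log2 scale (edgeR, adjusted p = 0.18). *Ezh2* was divided among 4 transcripts whose estimated shares were unstable between libraries: Ezh2-201 made up 25.6 to 62.5% in wild type and as little as 7.97% in one null library, and Ezh2-203 made up 15.8 to 54.9% in wild type. The comparisons above used gene sums for *Ezh2*, as for every other member.

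Genes that act with or against PRC2 gave few calls. *AU022751*, listed by RefSeq as the gene of the EZH inhibitory protein, was the 1 of 5 other PRC2 accessory genes called higher in wild type. Its level was 17.1 ± 1.81 CPM (SD, n = 4) there and 11.1 ± 1.49 CPM (SD, n = 3) in null. Its log2 fold change was 0.62 ± 0.14 (SE; edgeR adjusted p = 0.023). *Kdm6a*, an enzyme that removes the PRC2 mark, was called higher, with a log2 fold change of 0.42 ± 0.08 (SE; adjusted p = 0.018), whereas *Kdm6b* and *Uty* were not called. Of 14 genes of canonical PRC1, the partner complex that binds the mark, *Scml2* alone was called (log2 fold change 0.48 ± 0.09, SE; edgeR adjusted p = 0.014). *Phc1*, higher in wild type, and *Cbx2* and *Phc2*, lower, were just above the threshold (edgeR adjusted p of 0.053, 0.054 and 0.066). Of 10 methyltransferases of H3K4 and H3K36, whose marks oppose PRC2, 0 were called by edgeR, with 1 at an unadjusted p under 0.05. DESeq2 called 1 higher, and *Setd1b* did not pass the filter. Null replicate 2 was the highest null library for each of the 10. There *Kmt2d* was at 251 CPM, against 72.8 and 87.8 in null replicates 1 and 3, and *Kmt2a* at 240, against 98.1 and 125. With a library left out, 0 to 1 of the list were called higher and 0 lower. Of 17 other genes of NuRD, SIN3 and CAF-1, *Hdac1* was called higher (0.35, adjusted p = 0.019) and *Mbd2* lower (-0.33, adjusted p = 0.023). The calls of *AU022751* and *Kdm6a* were lost without wild-type replicate 2 or 3 or null replicate 2 or 3, and that of *Scml2* without wild-type replicate 2 or 3 or null replicate 3. Those of *Hdac1* and *Mbd2* were lost without any 1 of wild-type replicates 2, 3 and 4 or null replicates 2 and 3. In these cases the edgeR adjusted p was 0.050 to 0.087. *AU022751* and *Kdm6a* were also not called by limma on log2(TPM + 1) or with the replicate block. Over the 16 alternatives the log2 fold change fell as low as 0.37 for *AU022751*, 0.15 for *Kdm6a*, 0.23 for *Scml2* and 0.10 for *Hdac1*. That of *Mbd2* stayed between -0.55 and -0.30. In TPM the groups of *Kdm6a* and of *Hdac1* overlapped. In each of these lists the share called is to be read beside the 7.77% and 3.33% of all genes.

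The 5 genes whose pattern over the 7 libraries was nearest to that of *Ezh2*, by the root mean square difference of centred log2 CPM, were *Casp8ap2* (0.0252), *Ciao1* (0.0411), *Mrgbp* (0.0438), *Ift80* (0.0462) and *Hat1* (0.0479). No PRC2 gene was among them. The nearest was *Jarid2*, ranked 1694 of 13499 genes, followed by *Ezh1* at 1829, and the farthest were *Mtf2* at 10511 and *Phf1* at 11588.

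**Figure D5:**
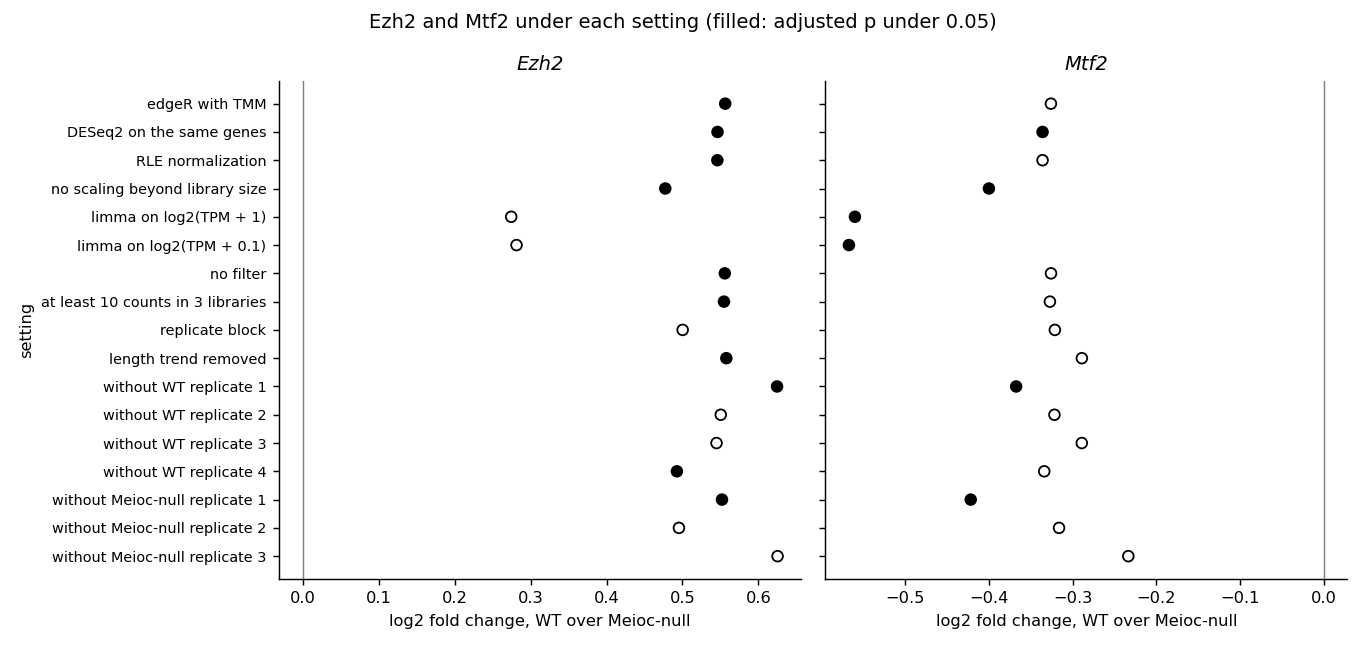
Log2 fold change, wild type over Meioc-null, of Ezh2 and Mtf2 under each setting and with each library left out in turn (1 point per setting, filled when the adjusted p is under 0.05). Ezh2 stays between 0.27 and 0.63 and Mtf2 between -0.57 and -0.23, and which points are filled changes with the setting.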

How the data were processed

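Total RNA of synchronized testes was sequenced from rRNA-depleted stranded libraries, 1 pup per library. The authors trimmed reads with cutadapt 1.8 and estimated transcript levels with kallisto 0.44.0 on all GENCODE Basic transcripts (mm10), and then kept protein-coding genes. The deposited files hold estimated counts, not normalized, and TPM, rescaled by the authors over protein-coding transcripts. Here both were summed per gene (43020 of 43139 transcripts matched through a later GENCODE release) and the counts were rounded. Genes reaching 1 TPM in 3 or more of the 7 libraries were tested with edgeR 4.0.16 (quasi-likelihood, TMM) with Benjamini-Hochberg adjustment over all 13630 genes. On simulated data for this comparison, over 13630 genes, 94.5% of 200 changed genes were recovered (189 genes), with 14 false calls. Recovery at differences as small as those of the PRC2 members was not tested separately. Ratios of TPM were compared by exact permutation tests. Alternatives were DESeq2 1.42.0, RLE, no scaling, limma 3.58.1 on log2(TPM + 1 or 0.1), other filters, a length trend, a replicate block and leaving out each library. The study itself used DESeq2. Members and lists were chosen with earlier results of these data known. All 10 members were named, up to 3 called genes per list and direction, and the 5 genes nearest to *Ezh2*. Library totals of 12537852 to 20552702 set the counting precision. Same-numbered libraries of the 2 genotypes correlated at -0.06, -0.10 and -0.23 in their deviations, so the numbers do not pair them.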

Additional observations from a re-analysis of the deposited data

Results flagged for a closer look

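Each group of 4 wild-type libraries was checked for a library far from the others by Dixon's criterion, over 16 groups of values, of which 3 were flagged. Chance flags about 1 group in 20. *Phf19* in wild-type replicate 3 was at 2.29 CPM, on 34 estimated counts, against 1.01 to 1.18 CPM in the other wild-type libraries. The ratio of *Phf19* to *Mtf2* was 0.01215 in the same library, against 0.00512 to 0.00605 in the others, and shares the *Phf19* value. The ratio of *Suz12* to *Eed* was 1.131 in wild-type replicate 2, against 1.37 to 1.41 in the others.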

How the results depend on the processing

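The count of members called higher was 0 by limma on log2(TPM + 1) and log2(TPM + 0.1) and with the replicate block, 2 with the length trend removed (*Jarid2* joined, adjusted p = 0.034), and 0 to 1 with a library left out. The count called lower was 1 by DESeq2, with no scaling and by both limma fits, and 0 to 2 with a library left out. On log2(TPM + 1) and log2(TPM + 0.1) the log2 fold changes of *Ezh1* turned to -0.036 and -0.037, *Suz12* to -0.21 and -0.21, *Rbbp4* to -0.15 and -0.15 and *Rbbp7* to -0.23 and -0.23, and with no scaling *Suz12* was at -0.0066 and *Rbbp7* at -0.051. With a library left out *Eed* ranged from -0.0998 to 0.037, *Rbbp7* from -0.038 to 0.12, *Phf19* to *Mtf2* from -0.53 to 0.41 and *Meioc* from 0.63 to 0.88. *Meioc* was 0.68 with the replicate block (adjusted p = 0.0997). Over all genes the calls numbered 1059 higher and 454 lower in the edgeR fit, 1456 and 875 with DESeq2, 814 and 899 with no scaling, 440 and 2082 on log2(TPM + 1), 94 and 15 with the replicate block, and 131 to 2172 in all with a library left out. *Ezh2* under the replicate block was at 0.50 (adjusted p = 0.11). Of the single-library omissions, null replicate 3 gave the fewest calls. Over the 16 alternatives the canonical PRC1 list held 0 to 2 calls higher and 0 to 3 lower, the NuRD, SIN3 and CAF-1 list 0 to 3 each way, the methyltransferases 0 to 1 each way, the other accessory genes and the demethylases 0 to 1 higher, and the peritubular myoid, Sertoli and undifferentiated spermatogonial markers 0 to 2 lower. Leydig markers held 0 to 1 call higher and 0 to 2 lower, and endothelial and macrophage markers 0 to 1 lower. The share of calls that were higher was 70.0% with TMM, 47.5% with no scaling and 17.4% on log2(TPM + 1). The causes were not tested.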
